A study of Mus musculus with 24 samples.

Results

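The genes described here were 30 genes of oligodendrocytes and myelin, chosen by name as markers of the cells that make myelin in the brain. Of the 30 names, 29 were found among the 13998 genes of the deposited table, and *Myrf* was not listed under that name. Expression was measured in the hypothalamus of 24 male F2 mice by SAGE-Seq, in which 1 library per mouse is made of tags cut near the 3′ ends of transcripts. The F2 mice came from an intercross of the B6.CAST-17.1 subcongenic strain with C57BL/6J. Over the subcongenic segment of chromosome 17, 12 mice were *cast/cast*, carrying CAST/EiJ alleles on both copies, and 12 were *b6/b6*, and elsewhere in the genome both groups were *b6/b6*. The mice entered testing at 10 to 16 weeks of age and were picked from the 25% tails of intake, the *cast/cast* mice for high and the *b6/b6* mice for low carbohydrate/protein (C/P) intake. Mean intake of the C/P diet over 10 d was 86.8 ± 9.08 kcal (SD, n = 12) in the *cast/cast* and 36.4 ± 3.93 kcal (SD, n = 12) in the *b6/b6* mice. Genotype and intake therefore cannot be told apart between the groups. Tissue was collected about 48 h after the mice were given the choice diets again, following a 4 h fast.

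Oligodendrocytes wrap axons in myelin, a stack of membrane held together by a small set of abundant proteins and unusually rich in glycolipid. They arise from progenitors that carry the PDGF receptor alpha and the NG2 proteoglycan, and transcription factors such as *Sox10* and *Olig2* hold them to that lineage. The hypothalamus contains myelinated tracts and also borders the heavily myelinated optic chiasm and optic tract.

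Of the 29 genes, *Mog* and *Qk* lie in the CAST segment and 27 lie outside it. On GRCm38, the deposited table places *Mog* at chr17:37010739-37023398 and *Qk* at chr17:10210179-10319361, both on the minus strand. The tag that SAGE counts for a gene begins at the CATG nearest the 3′ end of the transcript. Tags were predicted on GRCm38 from those GENCODE M21 transcripts that are linked to a RefSeq mRNA. The 29 genes had 37 such tags of 27 bases, 31 of them in a 3′ UTR and 6 touching coding sequence. Among the linked transcripts, 0 of the 37 were found in another gene, and other transcripts were not searched. The tags of the genes that the results turn on are given 5′ to 3′, with the CATG cut site in capitals, because each measured level is a count of tags of this kind. The study counted tags against RefSeq mRNAs, so the tag counted for a gene may differ from the predicted one.
*Mog*, chr17:37011280-37011306, minus strand, 3′ UTR: CATGttagtctgactatagaaaacacc
*Qk*, proximal transcript end, chr17:10210211-10210237, minus strand, 3′ UTR: CATGttgtttgtaaatagaataattga
*Qk*, distal transcript end, chr17:10202878-10202904, minus strand, 3′ UTR: CATGtgaagctcatacataccacaaac
*Mag*, chr7:30899179-30899205, minus strand, 3′ UTR: CATGaaataaatgtcctaatgacaaat
*Fa2h*, chr8:111345913-111345939, minus strand, 3′ UTR: CATGatgcctcccacaggccattccca
*Bcas1*, chr2:170347416-170347442, minus strand, 3′ UTR: CATGaattcccaacttcaaaagggaaa
*Car2*, chr3:14900456-14900482, plus strand, 3′ UTR: CATGagacaaactgaagtaacttaggc
*Qk* has a pair of predicted tags because its transcripts end at different places. The distal tag belongs to a longer GENCODE transcript that runs past the span in the table, and the deposited table gives 1 value for the gene. The predicted tag of *Mag* also reaches past the 3′ end of its span in the table. Those of *Opalin* and *Gpr37* lie wholly outside their spans. The tags of *Mog* and *Qk* were read from the C57BL/6J reference, and whether CAST/EiJ alleles differ from it at these bases was not analysed here.

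The libraries held 7754202 to 13082873 tag hits, that is, aligned tags assigned to genes. Across all genes, 4 libraries stood apart, with a median correlation to the other libraries of 0.862 to 0.912 against 0.924 to 0.956 for the rest. They were the *b6/b6* mice with study numbers 27 and 42 and the *cast/cast* mice with study numbers 15 and 72. The study number is an identifier in the deposited labels. The *cast/cast* mice had a median study number of 120.5 and the *b6/b6* mice one of 269.5, which partly confounds it with genotype. Levels of marker lists of other cell types are mean log2 deviations of their genes from the mean over all mice.

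The 29 genes together made up 0.263% to 0.540% of all normalized counts in *cast/cast* mice, with a median of 0.498%, and 0.320% to 0.791%, with a median of 0.449%, in *b6/b6* mice. These shares overlapped between genotypes. Between genes a tag count does not grow with transcript length, since a transcript gives a tag at its last cut site, so the levels can be set side by side, within the limits of tag assignment. *Mbp*, encoding myelin basic protein, which binds the cytoplasmic faces of the membrane together, was the most abundant, with a mean of 20112 normalized counts, and made up 24.6% to 59.1% of the total of the 29 genes in a mouse. The RNA-binding protein gene *Qk* followed with a mean of 8231, then *Trf*, encoding the iron carrier transferrin, with 4793. *Cldn11*, the tight junction protein of myelin, averaged 2356 and *Cnp*, encoding the phosphodiesterase of uncompacted myelin, averaged 1467. The lowest mean, 9.27, was that of *Fa2h*, the fatty acid hydroxylase that modifies myelin glycolipids, which was at 0 in 2 *cast/cast* mice. The other 28 genes were detected in every mouse. The plot of the values by mouse shows that the spread within a genotype was wide for many of the genes.

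**Figure D1:**
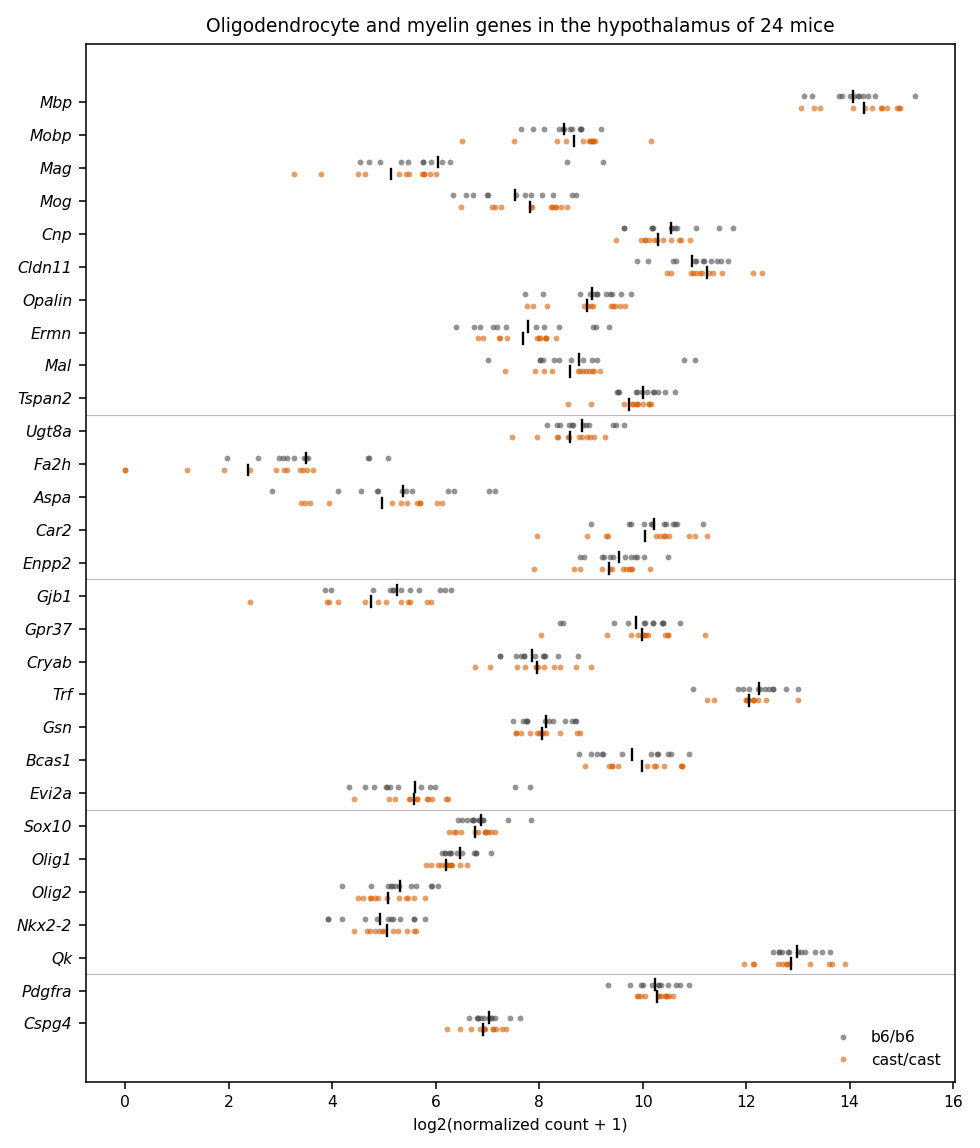
Level of each of the 29 genes on a log2(normalized count + 1) scale, 1 point per mouse, grey for 12 *b6/b6* and orange for 12 *cast/cast* mice, with the mean of each genotype as a black bar and grey lines between roles. The points of the genotypes overlap for all 29 genes, and 2 *b6/b6* mice lie far above the others for *Mag*, *Mal* and *Evi2a*.

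The first question was whether any of these genes differed between *cast/cast* and *b6/b6* mice. A gene was called when limma gave *P* of at most 0.01 and the mean normalized counts differed by at least 1.5-fold. Of the 29 genes 0 were called, where 1.49% of all genes were called (208 genes). At unadjusted *P* under 0.05, limma gave 1 of the 29 genes, *Fa2h*, against 8.13% of all genes. edgeR on recovered tag hits called 1 gene, *Mag* (2.79% of all genes), and DESeq2 called 0 (2.82%). At unadjusted *P* under 0.05, both gave *Mag*, *Fa2h* and *Olig1*, where the shares of all genes were 11.6% for edgeR and 12.1% for DESeq2. The genotype groups overlapped for 29 of 29 genes, and did not overlap for 0.336% of all genes. The median log2 fold change of the 29 genes, *cast/cast* minus *b6/b6*, was -0.11, with 20 genes below and 9 above zero, and that of all genes was -0.02. Without the 4 libraries that stood apart, 0 of the 29 genes were called (1.37% of all genes), the median was -0.02, and 15 genes lay below and 14 above zero. Without only the 2 *b6/b6* libraries 0 were called (0.986% of all genes). With study number as a covariate *Mag* was called (2.23% of all genes), with the colony number band as a covariate *Mag* and *Fa2h* were (1.34%), and with the level of *Mbp* as a covariate *Fa2h* was (1.76%).

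**Figure D2:**
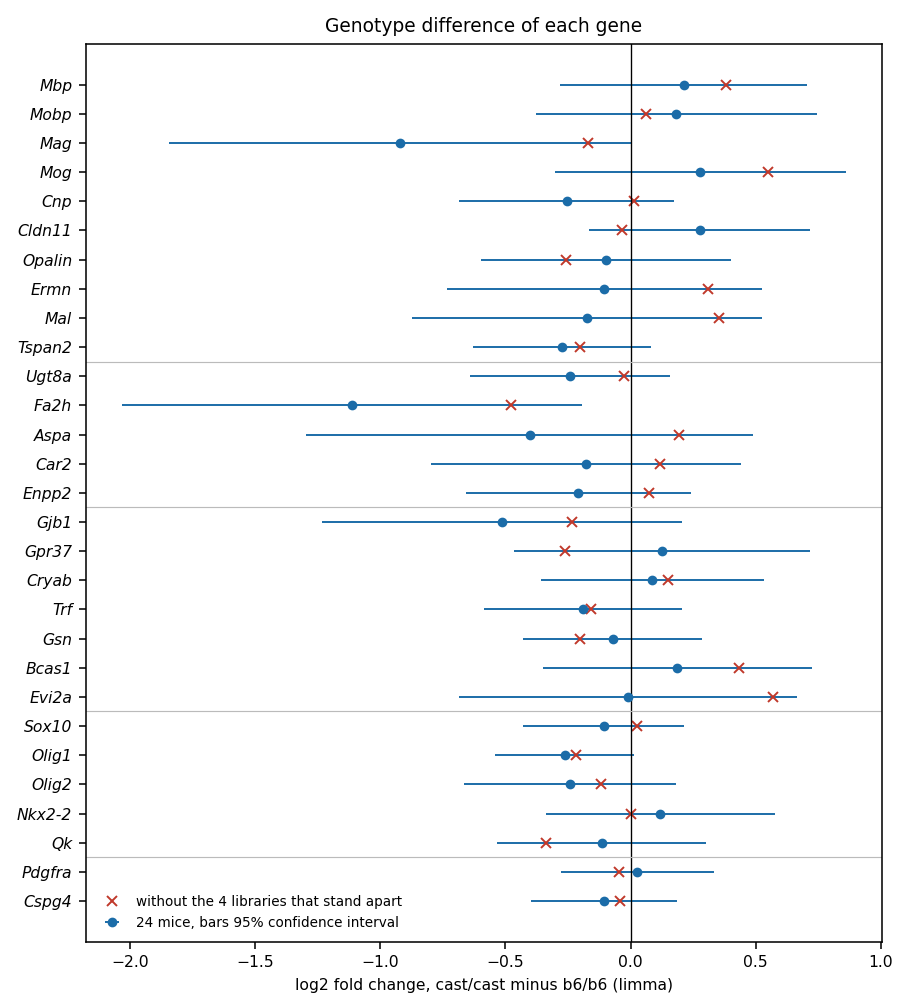
Log2 fold change of each gene, *cast/cast* minus *b6/b6*, from limma. Blue points with bars give the estimate and 95% confidence interval over 24 mice, red crosses the estimate without the 4 libraries that stood apart, and grey lines separate roles. The interval of *Fa2h* lies below zero, that of *Mag* ends at it, and both crosses lie closer to zero than the points.

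Of *Mog* and *Qk*, the pair within the segment, neither was called. *Mog* encodes a glycoprotein of the outermost myelin layer. Its normalized counts were 79.8 at the lowest, 199 at the median and 416 at the highest in *b6/b6* mice, and 88.9, 266 and 373 in *cast/cast* mice. The groups overlapped over nearly their whole ranges. The log2 fold change was 0.28 (SE 0.28, 95% confidence interval -0.30 to 0.86), with *P* = 0.332 and adjusted *P* = 0.775 by limma with Benjamini-Hochberg adjustment. *Qk* encodes the quaking RNA-binding proteins, which bind and process the mRNAs of myelin proteins and are also made by astrocytes. Its normalized counts were 5841, 7780 and 12640 at the lowest, median and highest in *b6/b6* mice and 3967, 7068 and 15430 in *cast/cast* mice. The *cast/cast* range enclosed that of the *b6/b6* mice. The log2 fold change was -0.11 (SE 0.20, 95% confidence interval -0.53 to 0.30), with *P* = 0.579 and adjusted *P* = 0.883 by limma. Without the 4 libraries that stood apart, the log2 fold changes were 0.55 for *Mog* (*P* = 0.0715) and -0.34 for *Qk* (*P* = 0.102) by limma.

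Among the 10 structural and membrane proteins of myelin, 0 passed the test, and 4 log2 fold changes lay above and 6 below zero, with a median of -0.10. *Mbp*, the most abundant, held 8952, 17942 and 39433 normalized counts at the lowest, median and highest in *b6/b6* mice and 8598, 23604 and 32012 in *cast/cast* mice. The ranges overlapped, and the *b6/b6* range ran higher. The log2 fold change of *Mbp* was 0.21 (SE 0.24, *P* = 0.384, adjusted *P* = 0.803, limma). *Mag* encodes the glycoprotein on the myelin membrane that faces the axon. It held 22.1, 53.0 and 597.1 normalized counts at the lowest, median and highest in *b6/b6* mice and 8.58, 42.7 and 63.2 in *cast/cast* mice. The *b6/b6* values above 76.5 were those of the mice with study numbers 27 and 42, which held 597.1 and 369.1 and are libraries that stood apart. With all mice the log2 fold change of *Mag* was -0.92 (SE 0.45, *P* = 0.0509, adjusted *P* = 0.612, limma), and edgeR gave -1.59, which was called. In the other 20 mice the limma value was -0.17 (*P* = 0.582).

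Beside *Mog*, the remaining 7 of these genes had log2 fold changes from -0.27 for *Tspan2*, a tetraspanin of myelinating cells, to 0.28 for *Cldn11*. *Mal*, a proteolipid of myelin and of sorting vesicles, stood out in the same libraries as *Mag*, holding 2053 and 1775 normalized counts in the *b6/b6* mice with study numbers 27 and 42, where the other *b6/b6* mice held 128 to 558. *Cnp* and *Ermn*, the latter encoding the cytoskeletal protein ermin, were also higher in this pair than in any other *b6/b6* mouse. *Opalin*, a glycoprotein of the oligodendrocyte surface, and *Cldn11* were lower in the pair than in any other *b6/b6* mouse. *Mobp*, a second basic protein of compact myelin, ranged from 199 to 583 normalized counts in *b6/b6* mice. In *cast/cast* mice *Mobp* ranged from 89.9 to 1148, and the highest value was that of study number 15, a library that stood apart.

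Among the 5 enzymes, 0 were called, and all 5 log2 fold changes lay below zero, with a median of -0.24. With those 4 libraries left out 3 lay above zero and the median was 0.07. *Fa2h* held 2.89, 9.28 and 32.6 normalized counts at the lowest, median and highest in *b6/b6* mice and 0, 6.94 and 11.4 in *cast/cast* mice. The groups overlapped, and the 2 mice at 0 were *cast/cast*, with study numbers 72 and 270, where a count of 0 allows up to 3.56 and 2.86 normalized counts for counting error alone. The log2 fold change of *Fa2h* was -1.11 (SE 0.45, 95% confidence interval -2.03 to -0.19, *P* = 0.0194, adjusted *P* = 0.555, limma) and on this scale, with a pseudocount of 1, depends on the low counts. It was -0.48 (*P* = 0.246, limma) in the other 20 mice. *Car2*, carbonic anhydrase 2, which handles carbon dioxide in oligodendrocytes, was the most abundant enzyme. It held 509, 1262 and 2313 normalized counts at the lowest, median and highest in *b6/b6* mice and 249, 1330 and 2438 in *cast/cast* mice. The medians were close, and the *cast/cast* minimum was that of study number 15. The log2 fold change of *Car2* was -0.18 (SE 0.30, *P* = 0.562, adjusted *P* = 0.879, limma). *Ugt8a*, which makes the myelin lipid galactosylceramide, *Aspa*, which releases acetate from N-acetylaspartate, and *Enpp2*, which makes lysophosphatidic acid, had log2 fold changes of -0.24, -0.40 and -0.21.

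Of the 7 genes for junction, receptor, chaperone, iron and actin proteins, 0 were called and the log2 fold changes had a median of -0.01. *Trf* led this group. It held 2014, 5110 and 8240 normalized counts at the lowest, median and highest in *b6/b6* mice and 2437, 4336 and 8237 in *cast/cast* mice. The ranges were nearly the same, and the log2 fold change was -0.19 (SE 0.19, *P* = 0.336, adjusted *P* = 0.775, limma). *Gjb1*, the gap junction protein connexin 32, had a log2 fold change of -0.51 (*P* = 0.155, limma) and ranged from 13.5 to 77.2 normalized counts in *b6/b6* and from 4.31 to 58.9 in *cast/cast* mice. The other 5 were the orphan receptor *Gpr37*, the small heat shock protein *Cryab*, the actin-severing protein *Gsn*, *Bcas1*, which marks oligodendrocytes early in myelination, and *Evi2a*, a membrane protein. Their log2 fold changes were from -0.07 to 0.19. *Evi2a* was at -0.01 with all mice and at 0.57 (*P* = 0.0104, limma, which is not below the threshold) without the 4 libraries.

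Among the 4 transcription factors and *Qk*, and among the 2 progenitor surface proteins, 0 were called. *Sox10*, *Olig1*, *Olig2* and *Nkx2-2*, which specify the lineage or drive its maturation, averaged 32.7 to 115 normalized counts, with log2 fold changes from -0.26 for *Olig1* (*P* = 0.0622, limma) to 0.12 for *Nkx2-2*. *Pdgfra*, the growth factor receptor of progenitors, held 646, 1259 and 1896 normalized counts at the lowest, median and highest in *b6/b6* mice and 950, 1294 and 1535 in *cast/cast* mice. The *cast/cast* values lay inside the *b6/b6* range. The log2 fold change of *Pdgfra* was 0.03 (SE 0.15, *P* = 0.858, adjusted *P* = 0.969, limma). *Cspg4*, which encodes NG2, had a log2 fold change of -0.11 (*P* = 0.464, limma). Between the lowest and the highest mouse these 6 genes varied from 2.44-fold for *Olig1* to 3.89-fold for *Nkx2-2*, in the same range as *Gsn* at 2.46-fold and *Qk* at 3.89-fold. *Mag*, at 69.6-fold, varied the most of the 28 genes without a 0, and 8.93-fold without the 4 libraries that stood apart, where *Gjb1* varied the most at 16.5-fold and *Aspa* varied 13.1-fold.

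The *b6/b6* pair that stood apart differed from the other 10 *b6/b6* mice in opposite directions for different members of the group. Both mice were above every other *b6/b6* mouse for 9 of the 29 genes, *Mag*, *Cnp*, *Ermn*, *Mal*, *Fa2h*, *Aspa*, *Evi2a*, *Sox10* and *Olig1*, where 22.4% of all genes did so. Both were below every other *b6/b6* mouse for 7, *Cldn11*, *Opalin*, *Gpr37*, *Gsn*, *Nkx2-2*, *Qk* and *Pdgfra*, where 17.6% of all genes did so. These shares are a description of libraries that were singled out over all genes. In study numbers 27 and 42 the endothelial list stood at 0.75 and 1.01, where the other *b6/b6* mice reached 0.33, the astrocyte list at 0.40 and 0.38, where they reached 0.12, and the list of blood genes at 1.93 and 3.17, where they reached 1.32. A list of genes of committed oligodendrocytes and progenitors stood at 1.14 and 0.76, where they reached 0.16. Schwann cell markers stood at 0.47 and 0.77, where they reached 0.385. A list of other oligodendrocyte genes stood at 0.45 and 0.33, where they reached 0.38. The neuronal list stood at 0.06 and -0.01, where they reached 0.26. The part of these lists in the values of the pair was not tested. The *cast/cast* pair was below the other *cast/cast* mice for *Car2* and *Evi2a* and above them for 0 of the 29 genes, where the corresponding shares of all genes were 9.24% and 10.6%.

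The genes did not vary as a single group across the mice. After the mean of each genotype was subtracted, the 406 pairs of genes had a median Pearson *r* of 0.13 over 24 mice, from -0.71 for *Mbp* and *Qk* to 0.90 for *Mag* and *Mal*, and 26 pairs had *r* of at least 0.7. In the 20 mice whose libraries did not stand apart the median was 0.13 as well, and 26 pairs reached 0.7. The points share their libraries and scaling, so these values are descriptions. Whether mice with low values had fewer oligodendrocytes or less RNA per cell cannot be told apart in whole tissue.

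**Figure D3:**
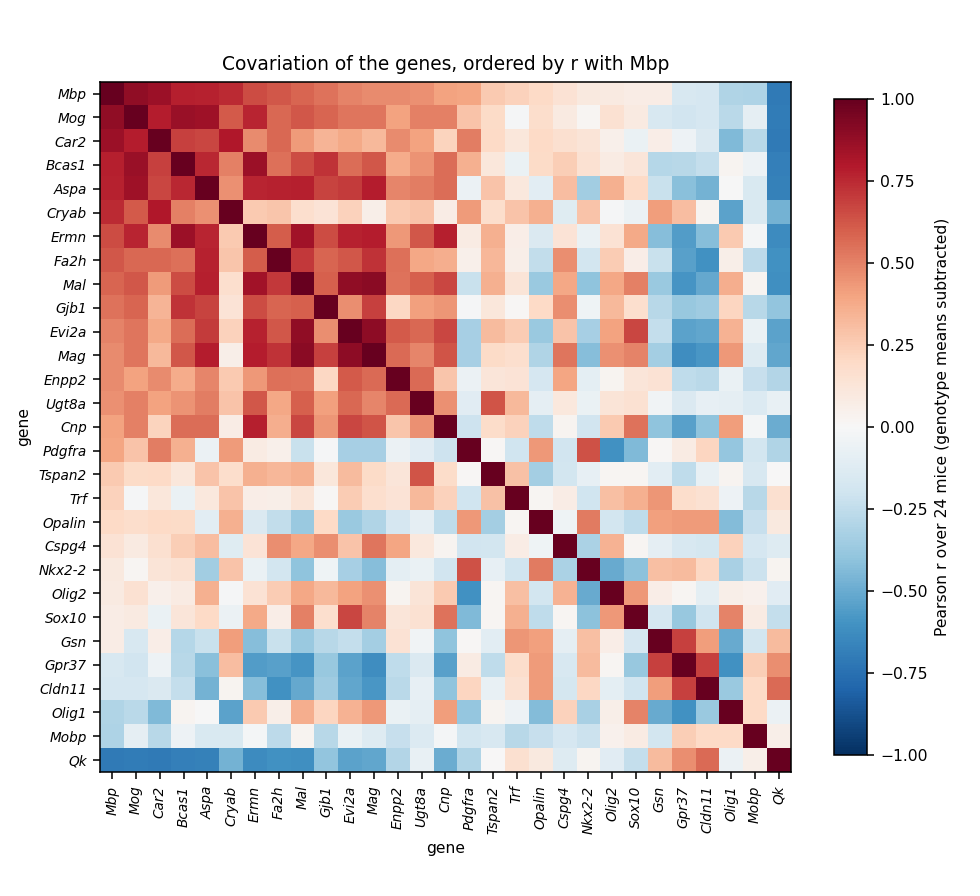
Pearson *r* between the levels of each pair of the 29 genes over 24 mice, genotype means subtracted, on a colour scale from -1 (blue) to 1 (red), with genes ordered by *r* with *Mbp*. A red block runs from *Mbp* to *Cnp*, the row of *Qk* is blue along it, and *Gsn*, *Gpr37* and *Cldn11* form a small red block of their own.

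*Mbp*, *Mog*, *Car2*, *Bcas1* and *Aspa* were high and low in the same mice. Their 10 pairs had *r* from 0.67 to 0.88 over 24 mice and from 0.63 to 0.88 without the 4 libraries. *Ermn*, *Mal*, *Mag* and *Evi2a* also varied together, with *r* from 0.77 to 0.90 over 24 mice and from 0.56 to 0.74 without the 4 libraries. Pairs of a gene of the first 5 with one of these 4 had *r* from 0.33 to 0.86 over 24 mice and from 0.45 to 0.92 without the 4 libraries, so that in those 20 mice the 9 genes did not fall into separate sets. *Cldn11*, *Gpr37* and *Gsn* had *r* from 0.42 to 0.68 with each other, which became 0.05 to 0.51 without the 4 libraries, and from -0.62 to -0.24 with *Ermn*, *Mal*, *Mag* and *Evi2a*, which became -0.33 to 0.20. These groupings were chosen after the values were seen.

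*Qk* ran opposite to *Mbp*, *Mog*, *Car2*, *Bcas1* and *Aspa*. Its *r* with these 5 genes was from -0.71 to -0.67 over 24 mice and from -0.77 to -0.60 without the 4 libraries. Of the 28 pairs that include *Qk*, 20 were negative. The *cast/cast* mice with study numbers 93 and 255 held 32012 and 31616 normalized counts of *Mbp* and 4494 and 3967 of *Qk*. Those with study numbers 258 and 270 held 10177 and 11023 of *Mbp* and 12919 and 12443 of *Qk*. *Mobp* had a median *r* of -0.14 over its 28 pairs and 0.25 at the highest, and of -0.02 and 0.51, with *Gpr37*, without the 4 libraries, 1 of which held its highest level. The transcription factors had a median *r* among themselves and with *Qk* of -0.09.

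**Figure D4:**
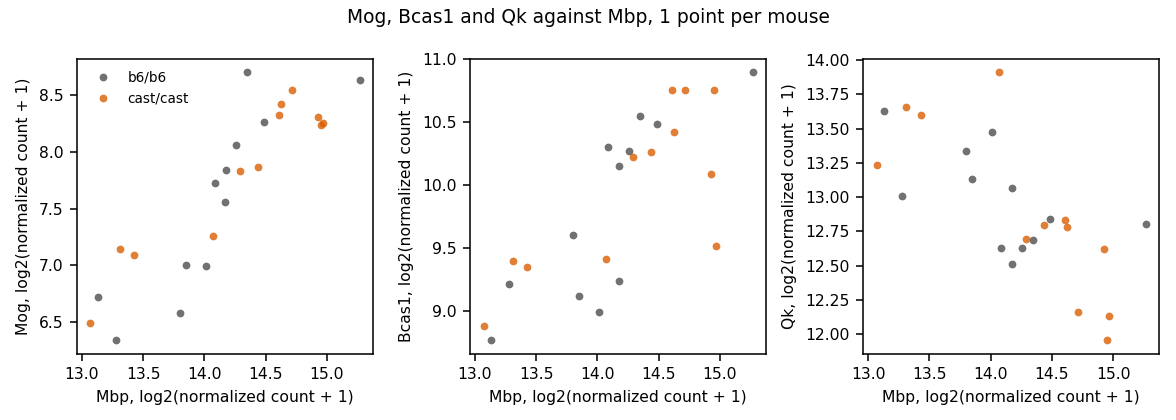
*Mog*, *Bcas1* and *Qk* against *Mbp*, all on a log2(normalized count + 1) scale, 1 point per mouse, grey for *b6/b6* and orange for *cast/cast*. *Mog* and *Bcas1* are high in the mice with high *Mbp* (*r* of 0.88 and 0.77 with genotype means subtracted), and *Qk* is low in them (*r* of -0.71), in both genotypes.

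A wider list of 42 other oligodendrocyte genes, of which 40 were measured, followed the same mice. Its mean deviation per mouse had *r* of 0.88 with the mean profile of 25 of the 29 genes, those other than *Mog*, *Qk*, *Pdgfra* and *Cspg4*, over 24 mice and 0.91 without the 4 libraries. The list of committed cells and progenitors, of which 17 genes were measured, had *r* of 0.54 with that profile and 0.30 without the 4 libraries. For genotype 0 of the 40 genes of the wider list were called by limma, with a median log2 fold change of -0.10. That median was 0.02 by edgeR, 0.03 by DESeq2, and -0.01 by limma without the 4 libraries. Of 17 measured genes of committed cells and progenitors limma called 1, where 1.49% of all genes were called. edgeR called 2, *Tcf7l2* and *Olfm2*, where 2.79% of all genes were called. At unadjusted *P* under 0.05, edgeR gave 5 of the 17 (11.6% of all genes) and limma 2 (8.13%), all lower in *cast/cast* mice. The gene called by limma was *Tcf7l2*, a transcription factor of newly forming oligodendrocytes that thalamic neurons also express. *Tcf7l2* held 83.0, 178 and 533 normalized counts at the lowest, median and highest in *b6/b6* mice and 64.6, 87.6 and 277 in *cast/cast* mice, so that the groups overlapped. Its log2 fold change was -0.84 (SE 0.29, *P* = 0.00710, adjusted *P* = 0.449, limma). For *Tcf7l2* edgeR gave -0.98 (*P* = 0.00288) and DESeq2 -0.97 (*P* = 0.00136), and both tools called it. Without the 4 libraries the limma value was -1.11 (*P* = 0.000754), which was called, where 1.37% of all genes were. Within bands of colony number it was -0.43 (*P* = 0.141) from 25014 to 26001 and 0.39 (*P* = 0.513) under 25000, and was called in neither by limma. Both *cast/cast* mice under 25000 were libraries that stood apart.

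Marker lists of other cell types moved with the oligodendrocyte profile to different extents. The list means of endothelial cells had *r* of 0.68 with it and those of microglia 0.62, which became 0.51 and 0.37 without the 4 libraries. Astrocytes had *r* of 0.30, which became -0.05, neurons 0.14 and 0.31, choroid plexus 0.19 and 0.32, thalamus -0.15 and 0.06, pituitary 0.46 and 0.37, and hemoglobin and other blood genes -0.04 and -0.49. Of 10 Schwann cell markers 4 were measured, with *r* of 0.50 and 0.14. Of 16 hypothalamic markers 15 were measured, led by *Pmch* with a mean of 8130 normalized counts, and their *r* was 0.34 and 0.29. Between genotypes limma called 0 genes of these lists. edgeR and DESeq2 each called *Ntng1*, of 10 thalamic genes measured, and *Hba-a1* and *Hba-a2*, of 3 blood genes measured. All were lower in *cast/cast* mice, and the shares of all genes called were 2.79% for edgeR and 2.82% for DESeq2. The part of these other cells in the pattern and in these calls was not tested.

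The second comparison asked whether the levels followed the study number of the mice within genotype. Slopes are log2 changes per 100 study numbers, with genotype in the fit, and a gene was called at adjusted *P* of at most 0.05. With all mice limma called 0 of the 29 genes and 0.0% of all genes. At unadjusted *P* under 0.05 it gave 11 of the 29 genes, against 21.2% of all genes. Of the 11, 8 had negative slopes (10.9% of all genes), *Mag*, *Mog*, *Cnp*, *Ermn*, *Mal*, *Aspa*, *Bcas1* and *Evi2a*, and 3 had positive slopes (10.3%), *Gpr37*, *Gsn* and *Nkx2-2*. In the wider list of oligodendrocyte genes 8 of 40 had *P* under 0.05, a share near that of all genes. Of the genes of committed cells and progenitors 5 of 17 did, all with negative slopes. Of microglial markers 6 of 12 did, 4 with positive and 2 with negative slopes, of endothelial markers 2 of 10, of neuronal markers 2 of 11 and of astrocyte markers 1 of 10. The part of these cells in the slopes was not tested. The lowest *P* among the 29 genes was that of *Mal*, with a slope of -0.45 (*P* = 0.00176, adjusted *P* = 0.152, limma). edgeR called 2 genes, *Mag* with a slope of -0.73 and *Mal* with -0.54, against 2.75% of all genes in either direction and 2.66% with negative slopes.

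Without the 4 libraries that stood apart, which all have low study numbers, limma called 4 of the 29 genes, all with negative slopes, where 15.2% of all genes were called in either direction and 8.59% with negative slopes. They were *Mog* (slope -0.47, adjusted *P* = 0.0165), *Aspa* (-0.57, adjusted *P* = 0.0324), *Bcas1* (-0.39, adjusted *P* = 0.0294) and *Ermn* (-0.38, adjusted *P* = 0.0353). The share of 13.8% was near that of all genes. Of the wider oligodendrocyte list 7 of 40 were called, and of the genes of committed cells and progenitors 1 of 17. Of neuronal markers 5 of 11 were called, 3 with positive and 2 with negative slopes, and of microglial markers 1 of 12. *Mbp* had a slope of -0.29 (adjusted *P* = 0.0859) and *Qk* of 0.25 (adjusted *P* = 0.0564) in the same limma fit, and neither was called. *Mag*, called by edgeR over all mice, had a slope of -0.30 (adjusted *P* = 0.150).

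The *b6/b6* mice were also divided evenly by study number, with the 2 *b6/b6* libraries that stood apart among the lower numbers. For *Mog* the 6 mice with study numbers 27 to 251 held 210 to 416 normalized counts and the 6 with study numbers 288 to 364 held 79.8 to 187. For *Bcas1* the same mice held 1137 to 1903 and 436 to 778, and for *Ermn* 244 to 648 and 82.6 to 163. *Qk* went the other way, with 5841 to 7320 in the 6 lower and 8239 to 12640 in the 6 higher study numbers. For these 4 genes of 29 (13.8%) the ranges did not overlap, a share near the 11.5% of all genes. The ranges of *Aspa*, 39.6 to 141 and 6.14 to 45.6, overlapped. In *cast/cast* mice, divided in the same way into study numbers 15 to 120 and 121 to 270, the ranges overlapped for all 29 genes, and did not for 0.0214% of all genes. The *cast/cast* mice with study numbers 258 and 270 held 140 and 135 normalized counts of *Mog*, and those with study numbers 245 and 255 held 341 and 300.

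**Figure D5:**
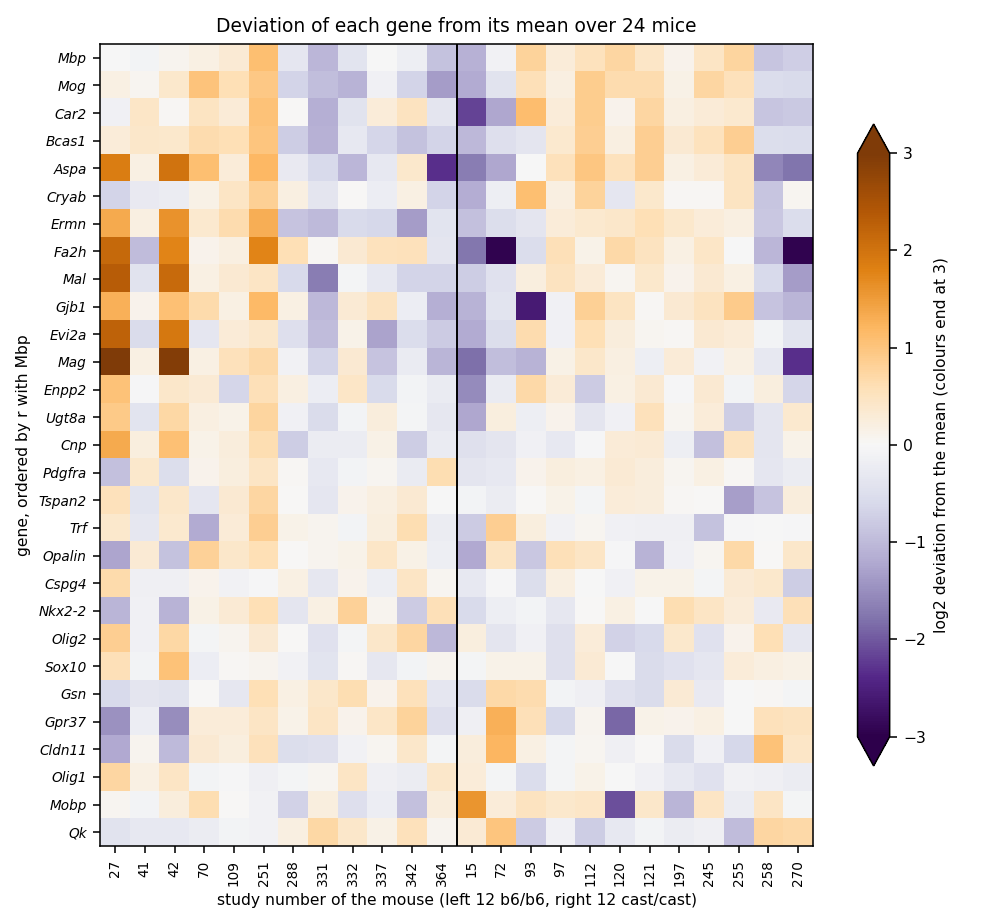
Log2 deviation of each gene from its mean over 24 mice, from purple (below) to orange (above), with mice ordered by study number within *b6/b6* (left) and *cast/cast* (right) and genes ordered by *r* with *Mbp*. The upper genes are mostly above their mean in *b6/b6* mice up to study number 251 and below it in most mice from 288 on, and the bottom row, *Qk*, does the reverse.

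Since colony numbers, which are also identifiers in the labels, were shared unevenly by the genotypes, the genotype comparison was repeated within bands of colony number. For colony numbers from 25014 to 26001, which 10 *cast/cast* and 3 *b6/b6* mice had, 0 of the 29 genes were called (0.679% of all genes), with a median log2 fold change of -0.20. For colony numbers under 25000, which 2 *cast/cast* and 4 *b6/b6* mice had, 5 were called, where 19.0% of all genes were. *Car2* (-1.91), *Aspa* (-2.74), *Ermn* (-1.59) and *Bcas1* (-1.17) were lower and *Qk* (0.96) was higher in *cast/cast* mice. This band holds all 4 libraries that stood apart, including both of its *cast/cast* mice. The signs of *Bcas1* and *Qk* there were opposite to those over all mice. The 5 mice with colony numbers from 26480 to 26641 were *b6/b6* only, so that band gave no comparison.

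The third comparison was with C/P intake within genotype, as slopes per 10 kcal. Of the 29 genes 0 were called by limma or edgeR, where 0.0% of all genes were called by either. At unadjusted *P* under 0.05, both tools gave 0 of the 29 genes, against 3.72% of all genes for limma and 4.15% for edgeR. As the mice had been chosen from the tails, each genotype covered only part of the intake range. C/P intake ran from 77.8 to 106.6 kcal in *cast/cast* and from 27.4 to 41.0 kcal in *b6/b6* mice.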

How the data were processed

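Hypothalamic RNA of 24 mice was profiled by SAGE-Seq, 1 library per mouse, 12 independent mice per genotype. The values are signal values that the authors made before they deposited them: tag hits aligned to RefSeq mRNAs and GRCm38/mm10 with SOLiD SAGE software and divided by DESeq size factors. The submitters' processing notes name DESeq, GRCm38 and mm10. The table also holds the authors' own group means, fold changes and *P* values, which were not used, and 0 sample columns were left unmapped. Of its 19529 rows 13998 distinct gene names were used, and the lowest mean was 6.03, so genes below that are not analysed here.

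Whole tag hits were recovered by dividing each value by the value of 1 hit in its library, and 100% came out whole within 0.01. Genotype, study number (per 100) and C/P intake (per 10 kcal) were fitted with limma 3.58.1 in R 4.3.3, with an empirical Bayes trend, on log2(normalized count + 1), which understates changes of low genes. All genes with a mean of at least 5 were tested, with Benjamini-Hochberg adjustment over all of them. edgeR 4.0.16 (quasi-likelihood test) and DESeq2 1.42.0 were run on the recovered tag hits. In simulated data limma and edgeR called 99.5% of 200 genes changed between genotypes. That share applies only to the changes that were simulated. How often changes of the size seen in the listed genes would be called was not tested, nor was this tested for genes as low as *Fa2h*. Correlations over mice were computed after subtracting genotype means, and a list's level in a mouse is the mean log2 deviation of its genes.

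The genes and lists were chosen with earlier results of these data known. *Mog* and *Qk*, genes with *P* of at most 0.05 by genotype and the most abundant gene of each role are given in full. *Mag*, *Mal*, *Evi2a* and further genes named with values were picked with the values in view. The 10 genes most like the group, by *r* with its mean profile without *Mog*, *Qk* and the progenitor genes, are also named. So are genes of other lists that limma, edgeR or DESeq2 called between genotypes over all mice. Tags were predicted with Python 3.11.15. Alternatives were other pseudocounts (0.5 and 5), a higher minimum mean (20), rescaled totals, TMM, other tools, covariates, colony number bands and left-out libraries, of which the 4 libraries, the 2 *b6/b6* libraries and the *Mbp* covariate were added after seeing the data.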

Additional observations from a re-analysis of the deposited data

How the results depend on the processing

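The calls rest on 24 libraries, 4 of which stood apart, and on genotypes that are partly confounded with study and colony number. For genotype, where 0 of the 29 genes and 208 of all genes were called, the count of the 29 was 1 with edgeR (391 of all genes), 1 with study number as a covariate, 2 with colony number bands as covariates, 1 with *Mbp* as a covariate and 5 among colony numbers under 25000 (2656 of all genes, median log2 fold change -0.43, with *Bcas1* at -1.17 and *Qk* at 0.96, opposite in sign to all mice). It was 0 under the other alternatives, of which DESeq2 called 395 of all genes, colony numbers from 25014 to 26001 gave 95, leaving out the 2 *b6/b6* libraries gave 138 and an adjusted *P* of at most 0.05 gave 80. For study number, where 0 were called, edgeR called 2 (385 of all genes) and leaving out the 4 libraries gave 4 (2133 of all genes). For intake 0 were called under every alternative run. Signs of uncalled genes changed for up to 11 of 29, most when the 4 libraries were left out, and the cause was not tested. No minimum mean gave the same genes as the minimum used. Libraries of 12 per genotype were not left out singly. No paired analysis was possible because the labels give no replicate number that pairs mice across genotypes.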

Other observations

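Beyond the listed genes, those whose levels over the 24 mice were most like the mean profile of the group are given as values. Of 13969 other genes compared, with genotype means subtracted, the median *r* was 0.05 and the 95th percentile 0.637. The 10 highest, from 0.85 down to 0.81, were *Mir5125*, *Adamtsl1*, *Parp2*, *Prg4*, *Lama2*, a gene listed as a date (8-Sep), *Tnfrsf19*, *Map6d1*, *R3hdm2* and *5830417I10Rik*. Their *r* in the 20 mice whose libraries did not stand apart was from 0.71 for *Map6d1* to 0.88 for *Prg4*. *Lama2* encodes a laminin chain of basement membranes, and *Tnfrsf19* a receptor of the tumor necrosis factor family.

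*Myrf*, the regulatory factor of myelin genes that was not listed under that name, has *Gm98* as an older symbol in RefSeq. *Gm98* held 90.5, 178 and 397 normalized counts at the lowest, median and highest in *b6/b6* mice and 34.3, 152 and 271 in *cast/cast* mice, which overlapped. Its log2 fold change was -0.47 (SE 0.31, *P* = 0.141, adjusted *P* = 0.670, limma).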
